A study of Mus musculus with 9 samples.

Results

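Reactive astrocyte markers were followed as 8 genes chosen by symbol: Serpina3n, Lcn2, Steap4, Cryab, Hspb1, Cp, S1pr3 and Aspg. The choice was made with earlier results of these data known. All 8 were found among the 55704 genes of the deposited table, and all 8 passed the filter on low values that left 20207 genes for testing. Astrocytes, the main supporting glia of the brain, change shape and gene expression after injury, inflammation or loss of blood supply. Most of the 8 genes are widely used as pan-reactive markers because they rise in reactive astrocytes after more than one kind of insult. Cryab was followed with them, and whether it belongs to the pan-reactive markers was not checked here. The group is mixed in function: Serpina3n is a secreted inhibitor of serine proteases, Lcn2 a secreted carrier of iron-binding molecules, Steap4 and Cp enzymes of iron and copper metabolism, Cryab and Hspb1 small heat shock proteins that hold unfolded proteins, S1pr3 a receptor for the lipid sphingosine-1-phosphate, and Aspg an asparaginase.

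RNA was sequenced in bulk from neural stem cells (NSCs) of the subventricular zone, the neurogenic lining of the lateral ventricle, of adult C57BL/6 mice. Each isolation pooled 2 female and 2 male mice aged 8 to 9 weeks, and the cells went through at least 3 passages in suspension with bFGF and EGF before they were plated. The bFGF/EGF-treated NSCs (20 ng/mL of each) were collected 16 to 18 h after plating, at day 0. The bFGF/BMP4-treated NSCs had EGF replaced by 20 ng/mL BMP4 with bFGF kept at 20 ng/mL, the BMP4-treated NSCs had both growth factors replaced by 20 ng/mL BMP4, and both were collected at day 6. The mice carried no labelled transgene or deletion, and each group had 3 libraries, described as biological replicates without a statement of whether they came from separate isolations, so the p-values measure the spread between these libraries. The bFGF/EGF-treated NSCs served as the aNSC (activated NSC) control of the study, and because they were collected at day 0, any comparison with them combines the change of medium with 6 further days of culture. In bulk RNA, fewer cells that express a gene and less RNA of that gene in each cell cannot be told apart.

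Levels are given as FPKM, fragment numbers scaled by transcript length and library size, which the authors deposited and which can be compared between genes. The libraries held 15902200 to 17437631 fragments on genes. Values of libraries of 1 group correlated on the log2 scale across genes at 0.95 to 0.964 (Pearson's r, as a description), and those of different groups at no more than 0.915. Sox2, a transcription factor of NSCs named here as a check of the label, was at 167 ± 36.2 FPKM (SD, n = 3) in the bFGF/EGF-treated, 137 ± 11.7 in the bFGF/BMP4-treated and 137 ± 13.4 in the BMP4-treated NSCs. Differences were tested with limma on log2(FPKM + 0.1) over all 9 libraries and adjusted over all genes tested, and a gene was counted as higher or lower where the adjusted p-value did not exceed 0.05 and the fold change reached 2. Log2 fold changes below are fitted on that scale, which understates the change of low genes, while folds are ratios of mean FPKM unless stated otherwise. The detection limit was set at 3 fragments per library, so a group is called at the limit for a gene when none of its libraries exceeds it, which covers counting error only.

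Cryab, Hspb1, Serpina3n and Aspg were highest in the BMP4-treated NSCs and stood at an intermediate level in the bFGF/BMP4-treated NSCs. S1pr3 was also highest in the BMP4-treated NSCs but low in both other groups. Lcn2 was above the detection limit in the BMP4-treated NSCs alone. Cp was low in the bFGF/BMP4-treated NSCs and at like levels in the remaining groups, and Steap4 did not pass the threshold in any comparison. The start regions of Cryab and Hspb1, the small heat shock protein genes of the group, and of Serpina3n are shown first, because these 3 genes reached the highest levels of the 8. The sequence is that of GRCm39 on the plus strand, read 5′ to 3′, and it ends at or near the base before the canonical start site of GENCODE vM39 (position -1). Capitals mark matches to GAANNTTC, the core of the heat shock element that the factor HSF1 binds, searched with its reverse complement, which has the same letters.
Cryab (chr9:50664042-50664176, bases -145 to -11, the stretch without annotated exons): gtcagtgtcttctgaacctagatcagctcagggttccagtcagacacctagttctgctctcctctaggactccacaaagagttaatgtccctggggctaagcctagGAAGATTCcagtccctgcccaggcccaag
Hspb1 (chr5:135916510-135916759, bases -250 to -1): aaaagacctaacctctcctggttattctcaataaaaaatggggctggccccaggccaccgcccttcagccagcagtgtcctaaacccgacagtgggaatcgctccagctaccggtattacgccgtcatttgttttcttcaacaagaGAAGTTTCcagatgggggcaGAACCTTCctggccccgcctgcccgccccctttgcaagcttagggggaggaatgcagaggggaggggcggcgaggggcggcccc
Serpina3n (chr12:104372560-104372809, bases -250 to -1): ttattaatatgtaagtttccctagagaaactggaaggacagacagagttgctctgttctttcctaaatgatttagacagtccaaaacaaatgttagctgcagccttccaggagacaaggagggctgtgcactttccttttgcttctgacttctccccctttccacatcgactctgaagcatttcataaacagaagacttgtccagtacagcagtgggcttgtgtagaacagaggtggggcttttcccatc

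In the 250 bases before the start site, GAANNTTC was found in 2 of the 8 genes, Cryab (bases -39 to -32) and Hspb1 (bases -104 to -97 and -84 to -77), and in 6.33% of 21770 protein-coding genes. The heat shock element in its other order, TTCNNGAA, was found in Steap4 (bases -18 to -11) and Aspg (bases -247 to -240), and in 6.79% of all these genes. An AP-1 site (TGANTCA) lay in Cp (bases -49 to -43; 6.17% of all), and a C/EBP site (TTGCNNAA) in Lcn2 (bases -158 to -151; 9.34% of all). No match to the STAT site TTCNNNGAA (7.7% of all), the SMAD site GGCGCC (9.31% of all) or TATAAA (11.9% of all) was found in the 8 genes. Both strands were searched for each motif, and none of the matches overlapped. A match says only that the letters are present.

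Cryab, which encodes alphaB-crystallin, had the highest level of the 8 genes in every group. Its values were 27.1, 38.0 and 20.5 FPKM in the bFGF/EGF-treated, 147, 141 and 146 FPKM in the bFGF/BMP4-treated, and 1292, 1849 and 1121 FPKM in the BMP4-treated NSCs. The 3 groups were fully separated, in the order bFGF/EGF, bFGF/BMP4, BMP4. Cryab was 5.07-fold higher in the bFGF/BMP4-treated than in the bFGF/EGF-treated NSCs (log2 fold change 2.38 ± 0.24 SE, limma adjusted p = 2.7e-05), 49.8-fold higher in the BMP4-treated NSCs (5.64 ± 0.24, limma adjusted p = 9e-08), and 9.81-fold higher in the BMP4-treated than in the bFGF/BMP4-treated NSCs (3.26 ± 0.24, limma adjusted p = 1.4e-05). By mean FPKM it ranked 1909th of the 20207 genes tested in the bFGF/EGF-treated NSCs, 199th in the bFGF/BMP4-treated and 15th in the BMP4-treated NSCs. In GENCODE vM39, Cryab (chr9:50651859-50668567, plus strand) overlaps Hspb2, a further small heat shock protein gene on the opposite strand whose start site lies 329 bases away. The deposited FPKM of Cryab correspond to a length of 1479 bases, against 4400 bases of exons in vM39. Whether the shorter model of the authors overlaps Hspb2 is not known here. Hspb2 had mean levels of 0.141, 0.780 and 3.36 FPKM in the same order of groups, far below those of Cryab, and was higher in the BMP4-treated NSCs than in both other groups. Whether the strand was used in counting is not given in the sources used here, and reads of overlapping genes cannot then be assigned with certainty.

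Hspb1, the other small heat shock protein of the group, started at a much lower level. It had 0.799, 0.920 and 0.768 FPKM in the bFGF/EGF-treated, 2.35, 3.10 and 3.49 FPKM in the bFGF/BMP4-treated, and 87.5, 149.6 and 56.7 FPKM in the BMP4-treated NSCs. The groups did not overlap and followed the same order as for Cryab, and the second BMP4 library was the highest for both genes. The level was 3.60-fold higher in the bFGF/BMP4-treated (log2 fold change 1.72 ± 0.30 SE, limma adjusted p = 0.00098) and 118-fold higher in the BMP4-treated NSCs (6.61 ± 0.30, limma adjusted p = 1.4e-07) than in the bFGF/EGF-treated NSCs. Between the BMP4-treated and the bFGF/BMP4-treated NSCs the difference was 32.8-fold (4.90 ± 0.30, limma adjusted p = 6.1e-06), the 23rd largest rise of all genes tested in that comparison.

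Serpina3n, a secreted protease inhibitor often used to mark reactive astrocytes in injured brain, was measured at 1.68, 1.81 and 1.37 FPKM in the bFGF/EGF-treated, 2.99, 5.02 and 5.14 FPKM in the bFGF/BMP4-treated, and 106, 79.4 and 60.3 FPKM in the BMP4-treated NSCs. The groups were again separated in that order, and here the first BMP4 library was the highest. Serpina3n was 2.70-fold higher in the bFGF/BMP4-treated (log2 fold change 1.35 ± 0.25 SE, limma adjusted p = 0.0014) and 50.6-fold higher in the BMP4-treated (5.55 ± 0.25, limma adjusted p = 1.3e-07) than in the bFGF/EGF-treated NSCs, and 18.7-fold higher in the BMP4-treated than in the bFGF/BMP4-treated NSCs (4.20 ± 0.25, limma adjusted p = 5.3e-06). Serpina3n (chr12:104372810-104380597) belongs to a cluster of closely related genes, and reads shared between them may be split in counting. The 10 paralogs listed (Serpina3a, b, c, f, g, h, i, j, k and m) did not reach the filter, and together they reached at most 0.388 FPKM in any library.

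Aspg, which hydrolyses asparagine, was at 0 in all 3 bFGF/EGF libraries. It was at 0.902, 0.685 and 0.599 FPKM in the bFGF/BMP4-treated NSCs (31 to 51 fragments) and at 9.17, 7.01 and 7.40 FPKM in the BMP4-treated NSCs (400 to 524 fragments). The order of the groups was thus the same as for Cryab, with no overlap. Set against a limit of 3 fragments in each bFGF/EGF library, Aspg was at least 14.4-fold higher in the bFGF/BMP4-treated (limma adjusted p = 5.2e-06) and at least 155-fold higher in the BMP4-treated NSCs (limma adjusted p = 3.7e-08). It was 10.8-fold higher in the BMP4-treated than in the bFGF/BMP4-treated NSCs (log2 fold change 3.27 ± 0.23 SE, limma adjusted p = 1.2e-05). With a pseudocount of 1 in place of 0.1, the log2 fold change of the bFGF/BMP4-treated against the bFGF/EGF-treated NSCs was 0.79, under the fold threshold.

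S1pr3, a G protein-coupled receptor, had 0.158, 0.680 and 0.330 FPKM in the bFGF/EGF-treated, 0.153, 0.161 and 0.137 FPKM in the bFGF/BMP4-treated, and 9.44, 10.8 and 11.8 FPKM in the BMP4-treated NSCs. The BMP4 libraries lay far above all others, whereas the 2 groups with bFGF overlapped. Their difference did not pass the test (log2 fold change -0.82 ± 0.35 SE, limma adjusted p = 0.081), although S1pr3 was counted as lower in the bFGF/BMP4-treated NSCs when the first bFGF/EGF library was left out (-1.21, limma adjusted p = 0.0094) and the difference was smaller without the second bFGF/EGF library, the highest of its group (-0.41, limma adjusted p = 0.26). The level in the BMP4-treated NSCs was 27.4-fold that of the bFGF/EGF-treated (4.60 ± 0.35, limma adjusted p = 3.4e-06) and 71.0-fold that of the bFGF/BMP4-treated NSCs (5.42 ± 0.35, limma adjusted p = 8.8e-06), the 12th largest rise of all genes tested in the latter comparison. Without the second bFGF/EGF library the former ratio was 43.8-fold. S1pr3 (chr13:51561702-51576833) is overlapped on the opposite strand by the long noncoding RNA gene Gm32834, which had mean levels of 0.164, 1.00 and 2.97 FPKM in the order bFGF/EGF, bFGF/BMP4, BMP4.

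Lcn2 was scarce in every library. Only 1 fragment was found in the bFGF/EGF libraries together and 2 in the bFGF/BMP4 libraries, all within the detection limit, against 15, 15 and 10 fragments in the BMP4 libraries. In FPKM, the BMP4 libraries stood at 0.352, 0.353 and 0.231, above the highest value of the other groups, 0.0249. By the ratio of summed fragments, scaled by library size, the BMP4-treated NSCs had 41.3 times the level of the bFGF/EGF-treated (95% counting interval 6.99 to 1670.5; log2 fold change 1.93 ± 0.37 SE, limma adjusted p = 0.0015) and 18.9 times that of the bFGF/BMP4-treated NSCs (4.89 to 161; 1.82 ± 0.37, limma adjusted p = 0.0062). The 1 bFGF/EGF fragment was in the third library, without which the ratio to the bFGF/EGF-treated NSCs was at least 4.47, and it was 27.4 without the first. The wide intervals follow from the few fragments, and no fold is given between the 2 groups at the limit (limma adjusted p = 0.83). With a pseudocount of 1, both log2 fold changes of Lcn2, 0.38 and 0.37, were below the fold threshold.

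The iron and copper enzymes of the group did not follow the stepwise pattern. Cp, the copper-carrying ferroxidase ceruloplasmin, had 2.21, 1.95 and 1.78 FPKM in the bFGF/EGF-treated, 0.410, 0.320 and 0.526 FPKM in the bFGF/BMP4-treated, and 2.19, 1.77 and 1.93 FPKM in the BMP4-treated NSCs. The bFGF/BMP4 libraries were below all others, and the remaining 2 groups overlapped. Cp fell 4.73-fold in the bFGF/BMP4-treated against the bFGF/EGF-treated NSCs (log2 fold change -2.02 ± 0.22 SE, limma adjusted p = 4.1e-05) and was 4.69-fold higher in the BMP4-treated than in the bFGF/BMP4-treated NSCs (2.01 ± 0.22, limma adjusted p = 0.00013), while the BMP4-treated and bFGF/EGF-treated NSCs were at -0.01 ± 0.22 (limma adjusted p = 0.97). Hps3, which overlaps Cp on the opposite strand, was at 2.18, 1.49 and 2.10 FPKM.

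Steap4, a metalloreductase, was at 0.0559, 0.120 and 0.0717 FPKM (3 to 6 fragments) in the bFGF/EGF-treated NSCs, at 0 in all bFGF/BMP4 libraries, and at 0.683, 0.196 and 0.0577 FPKM (35, 10 and 3 fragments) in the BMP4-treated NSCs. The BMP4 libraries spread over a wide range and overlapped with the bFGF/EGF libraries. None of the comparisons passed the threshold: the BMP4-treated NSCs were at least 5.04-fold above the bFGF/BMP4-treated NSCs (log2 fold change 1.73 ± 0.56 SE, limma adjusted p = 0.054), the bFGF/EGF-treated at least 1.33-fold above the bFGF/BMP4-treated NSCs (limma adjusted p = 0.24), and the BMP4-treated against the bFGF/EGF-treated NSCs gave 0.88 ± 0.56 (limma adjusted p = 0.21). Without the third BMP4 library, Steap4 was counted as higher in the BMP4-treated NSCs than in the bFGF/BMP4-treated (2.27, limma adjusted p = 0.012) and the bFGF/EGF-treated NSCs (1.41, limma adjusted p = 0.035). Without the first BMP4 library, which held 35 of the 48 fragments of its group, the same differences were 1.11 (limma adjusted p = 0.1) and 0.26 (limma adjusted p = 0.62), and the bound against the bFGF/BMP4-treated NSCs fell from 5.04-fold to 2.05-fold. In a limma-voom fit of the fragment numbers rebuilt from FPKM, it was lowest in the bFGF/BMP4-treated NSCs past the threshold (-3.09, limma adjusted p = 0.02, against the bFGF/EGF-treated NSCs, and 4.36, limma adjusted p = 0.0031, for BMP4 against bFGF/BMP4).

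**Figure D1:**
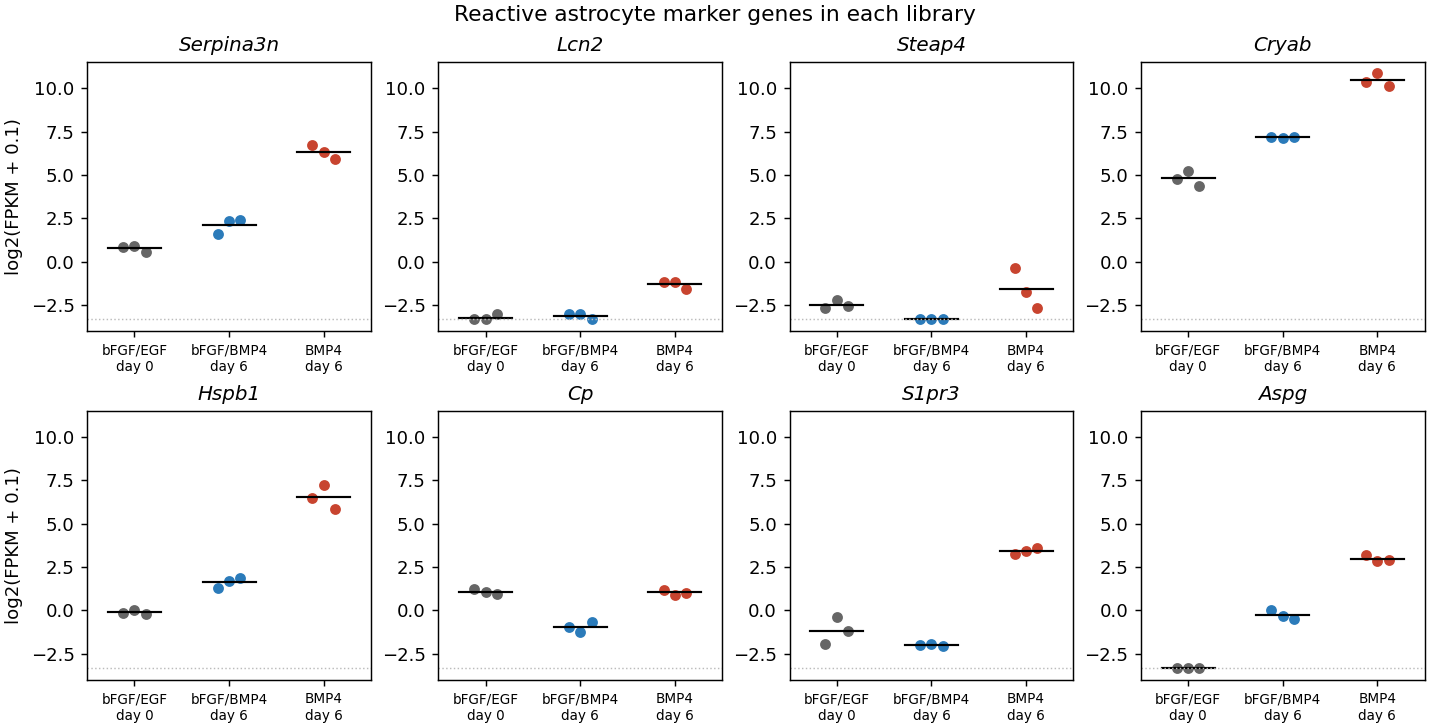
Level of each of the 8 genes in each library, as log2(FPKM + 0.1) on a shared vertical axis, with 1 point per library, the group mean as a bar and a dotted line at an FPKM of 0. Cryab, Hspb1, Serpina3n and Aspg rise from bFGF/EGF over bFGF/BMP4 to BMP4, S1pr3 stands out in BMP4, Cp is lowest in bFGF/BMP4, and Lcn2 and Steap4 lie near the bottom of the axis.

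Counted over the group, 4 of the 8 genes (Cryab, Hspb1, Serpina3n and Aspg) were higher and 1 (Cp) was lower in the bFGF/BMP4-treated than in the bFGF/EGF-treated NSCs, where 16.5% of all genes tested were higher and 14.1% lower. In the BMP4-treated against the bFGF/EGF-treated NSCs, 6 were higher and 0 lower by limma (0 also with limma-voom and at an unadjusted p below 0.05), against 21.3% and 15.4% of all genes, and Cp and Steap4 did not pass. In the BMP4-treated against the bFGF/BMP4-treated NSCs, 7 were higher and 0 lower by limma (8 and 0 with limma-voom, 0 lower at an unadjusted p below 0.05), against 8.41% and 5.14% of all genes, and only Steap4 did not pass. The median log2 fold changes of the 8 genes were 0.73, 5.07 and 3.27 in these comparisons, those of all genes tested 0.06, 0.10 and 0.00, and they were the same with genes at 0 in a group counted at their bound. The comparisons share libraries and are not independent of each other. Because the 8 genes were chosen with earlier results of these data known, the shares of all genes are set beside them as a description only.

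The values of all 3 libraries of the BMP4-treated NSCs lay above all 3 of the bFGF/BMP4-treated NSCs for 8 of the 8 genes, where 20.5% of all genes tested did so. Separation downward was found for 0 of the 8 genes there and for 18.3% of all. Against the bFGF/EGF-treated NSCs 6 genes were separated upward (32.6% of all) and 0 downward (27.8% of all), and for the bFGF/BMP4-treated against the bFGF/EGF-treated NSCs 4 genes were separated upward (30.2% of all) and 2, Cp and Steap4, downward (27.5% of all). Both threshold tests of the BMP4-treated NSCs were passed upward by 6 of the 8 genes and by 6.01% of all genes. The stepwise order with each step past the threshold was found for 4 of the 8 genes and for 2.03% of all genes. Lcn2 and Steap4 had means of 0.312 FPKM in the BMP4-treated NSCs and under 0.1 FPKM in both other groups. They thus passed the filter only through the BMP4 libraries, and their place among the genes high there was partly set by the filter. The choice of the 8 genes with earlier results known limits these counts as well.

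**Figure D2:**
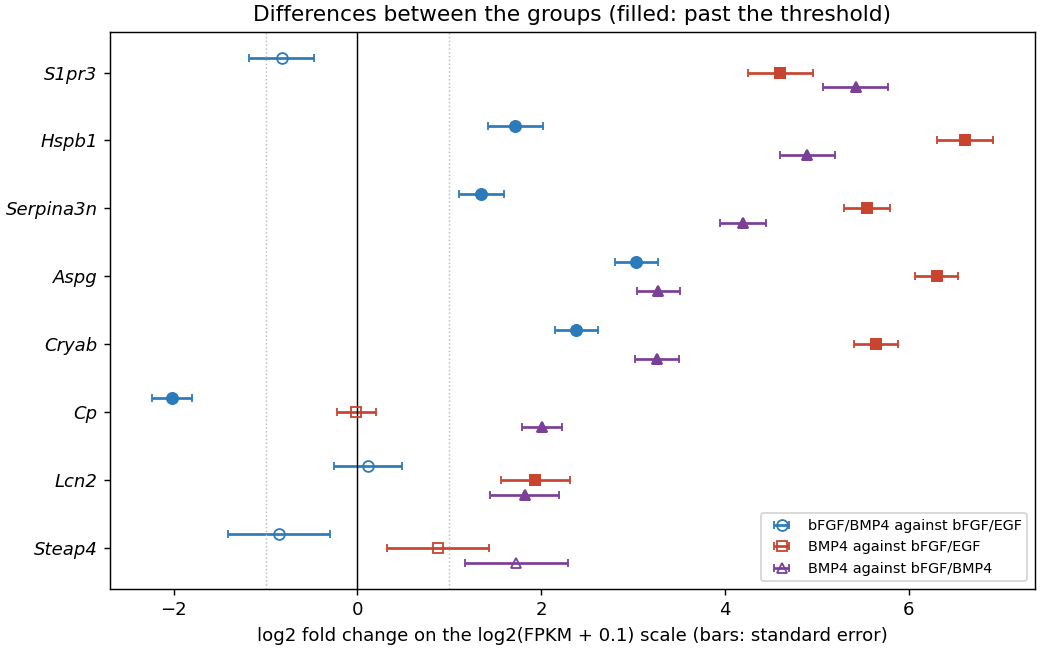
Log2 fold change of each gene in the 3 comparisons, with the standard error as a bar, filled symbols for differences past the threshold and dotted lines at a fold change of 2. The differences of BMP4 from both other groups extend to 6.61 (Hspb1), whereas Cp, Steap4 and S1pr3 lie left of 0 when bFGF/BMP4 is compared with bFGF/EGF.

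The profiles of the 8 genes were compared with those of 11213 protein-coding genes with a mean of at least 1 FPKM, by the root mean square difference of the centred log2 values over the 9 libraries, where a smaller value is a closer profile. The closest to Cryab were Kcne5 (0.208), Nxph4 (0.291) and Clu (0.314), the gene of the secreted chaperone clusterin, which reached a mean of 284 FPKM in the BMP4-treated NSCs. Aspg was closest to Synpo2 (0.238), Adra2a (0.264) and Ass1 (0.313), and Serpina3n to Igsf1 (0.235), P4ha3 (0.344) and Hdc (0.367). Hspb1 had Ucma (0.367), Th (0.394) and Rcsd1 (0.442) as its nearest profiles, and S1pr3 had Bmp6 (0.476), a BMP ligand, S100a6 (0.526) and Tmie (0.571). For Cp these were Camk2a (0.232), Fbln7 (0.247) and Adamts9 (0.247). For the low genes Lcn2 (Fosl2, 0.214; Scrt1, 0.217; Cadm3, 0.223) and Steap4 (Plxnd1, Chd3 and Cfap100, each at 0.401), the values lie near the pseudocount. Within the group the closest pairs were Cryab and Aspg (0.455) and Serpina3n and Hspb1 (0.544). In the bFGF/EGF-treated NSCs, Aspg, Ucma and Th had a mean of 0 FPKM. Igsf1, P4ha3, Hdc, Nxph4, Synpo2 and Rcsd1 had means below the pseudocount of 0.1 there. The distances that involve these genes thus depend in part on the pseudocount.

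The other pan-reactive genes listed were Gfap, Vim, Timp1, Cd44, Osmr and Cxcl10. In the BMP4-treated against the bFGF/BMP4-treated NSCs, 6 of the 6 were higher (median log2 fold change 2.71), in the BMP4-treated against the bFGF/EGF-treated NSCs 4 were higher and 1 lower (1.89), and in the bFGF/BMP4-treated against the bFGF/EGF-treated NSCs 1 was higher and 2 were lower (-0.82). Of all genes tested, 8.41% were higher and 5.14% lower, 21.3% and 15.4%, and 16.5% and 14.1% in the same order. Gfap, the intermediate filament that defines astrocytes in histology and also marks adult NSCs, had 0.0837, 0.0600 and 0.134 FPKM in the bFGF/EGF-treated, 16.8, 19.9 and 21.5 FPKM in the bFGF/BMP4-treated, and 3038, 2478 and 2181 FPKM in the BMP4-treated NSCs. It was thus 132-fold higher in the BMP4-treated than in the bFGF/BMP4-treated NSCs (log2 fold change 7.03 ± 0.17 SE, limma adjusted p = 3.5e-08). Vim, the filament vimentin, was at 647, 763 and 620.0 FPKM, then 150.2, 163 and 187 FPKM, then 872, 1029 and 774 FPKM in the same order of groups, the pattern of Cp with the lowest level in the bFGF/BMP4-treated NSCs.

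Timp1, an inhibitor of matrix metalloproteinases, was highest in the bFGF/EGF-treated NSCs (6.42, 8.40 and 5.23 FPKM) and lowest in the bFGF/BMP4-treated NSCs (0.421, 0.587 and 0.383 FPKM), with 3.47, 2.71 and 1.5 FPKM in the BMP4-treated NSCs. Its fall of the BMP4-treated from the bFGF/EGF-treated NSCs was 2.61-fold (log2 fold change -1.40 ± 0.31 SE, limma adjusted p = 0.0031), opposite in direction to the 6 members that were higher there. Cd44, a hyaluronan receptor, and Osmr, the oncostatin M receptor, rose 4.46-fold and 21.4-fold in the BMP4-treated against the bFGF/EGF-treated NSCs (limma adjusted p = 2.9e-06 and 1e-05). Cxcl10, a chemokine, stayed at or below 0.957 FPKM in every library.

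Further published sets split reactive genes by the insult, an A1 type seen after inflammation and an A2 type seen after ischaemia. Their counts stand beside shares of all genes of 21.3% higher and 15.4% lower in BMP4 against bFGF/EGF. These shares were 8.41% and 5.14% in BMP4 against bFGF/BMP4, and 16.5% and 14.1% in bFGF/BMP4 against bFGF/EGF. Of the A1-type genes 10 of 11 were tested. In the BMP4-treated NSCs 5 were higher and 2 lower than in the bFGF/EGF-treated (median 1.19), and 5 were higher and 1 lower than in the bFGF/BMP4-treated NSCs (0.94), while in the bFGF/BMP4-treated against the bFGF/EGF-treated NSCs 2 were higher and 4 lower (-0.44). Serping1, the inhibitor of complement C1, was at 1.67, 1.99 and 1.17 FPKM in the BMP4-treated NSCs and at most 0.0816 FPKM in any other library. Serping1 thus passed the filter only through the BMP4 libraries, and its place in the counts was partly set by the filter. Ggta1, a galactosyltransferase, and Gbp2, an interferon-induced GTPase, were at 4.14 to 6.08 and 1.23 to 3.40 FPKM in the BMP4-treated, and at 0.172 to 0.263 and 0.0742 to 0.108 FPKM in the bFGF/BMP4-treated NSCs.

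Of the A2-type genes 11 of 12 were tested. In the BMP4-treated NSCs 7 were higher and 2 lower than in the bFGF/EGF-treated (median 1.73), and 7 were higher and 1 lower than in the bFGF/BMP4-treated NSCs (2.51). In the bFGF/BMP4-treated against the bFGF/EGF-treated NSCs, 1 was higher and 5 were lower (-1.05). Cd109, a protease inhibitor on the cell surface, was at 2.93 to 3.23 FPKM in the bFGF/EGF-treated, 0.144 to 0.305 FPKM in the bFGF/BMP4-treated and 4.87 to 7.83 FPKM in the BMP4-treated NSCs. S100a10, a calcium-binding protein family member, fell 36.8-fold in the bFGF/BMP4-treated and 4.99-fold in the BMP4-treated against the bFGF/EGF-treated NSCs (limma adjusted p = 1.6e-07 and 1.7e-05). Sphk1, which makes sphingosine-1-phosphate, was highest in the bFGF/BMP4-treated NSCs, at 0.714, 1.13 and 1.64 FPKM in the bFGF/EGF-treated, 45.3, 58.3 and 53.3 FPKM in the bFGF/BMP4-treated, and 3.40, 4.85 and 4.33 FPKM in the BMP4-treated NSCs.

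**Figure D3:**
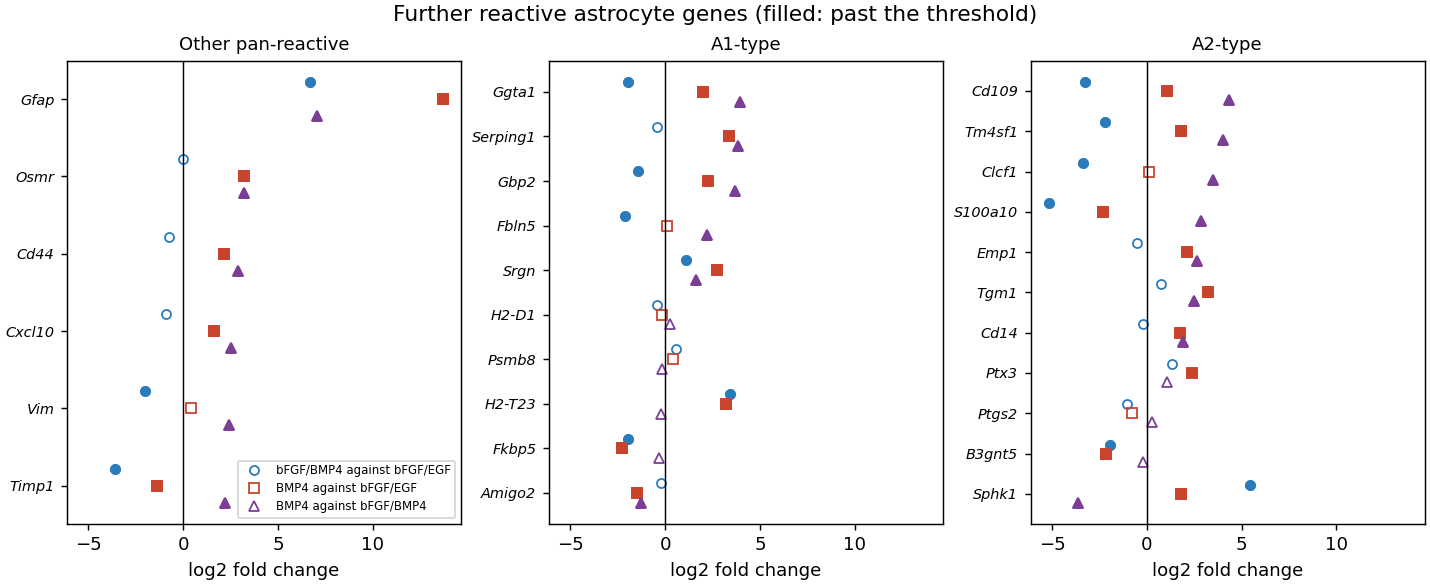
Log2 fold change of the other pan-reactive, the A1-type and the A2-type genes tested in the 3 comparisons, with filled symbols for differences past the threshold and a vertical line at 0. Most triangles (BMP4 against bFGF/BMP4) lie right of 0, Gfap has the largest values (up to 13.71), and Sphk1 lies furthest left in that comparison (-3.62).

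Sphk1 also belongs to the pathway of S1pr3. In the sphingosine-1-phosphate pathway, 9 of 11 genes beside S1pr3 were tested: 4 were higher and 1 lower in the bFGF/BMP4-treated, and 4 were higher and 2 lower in the BMP4-treated, than in the bFGF/EGF-treated NSCs. Between the BMP4-treated and the bFGF/BMP4-treated NSCs, 0 were higher by limma (1 at an unadjusted p below 0.05 and 1 with limma-voom) and 2 were lower, whereas S1pr3 was higher. Among all genes tested, 16.5% were higher and 14.1% lower, 21.3% and 15.4%, and 8.41% and 5.14% in these comparisons in turn. S1pr1, the most abundant receptor of the family in these cells, was at 5.91 to 8.74 FPKM in the bFGF/EGF-treated, 41.9 to 79.4 FPKM in the bFGF/BMP4-treated and 46.2 to 62.4 FPKM in the BMP4-treated NSCs. Spns2, the exporter of the lipid, was at 2.22 to 2.79, 0.381 to 0.639 and 0.892 to 1.30 FPKM.

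Among the other small heat shock proteins, 5 of 7 were tested. Hspb8, a partner of the co-chaperone Bag3, had 1.99, 2.11 and 2.5 FPKM in the bFGF/EGF-treated, 277, 259.5 and 227 FPKM in the bFGF/BMP4-treated, and 1130.0, 1303 and 1115 FPKM in the BMP4-treated NSCs, the same order as Cryab and Hspb1. Its fold change of the bFGF/BMP4-treated from the bFGF/EGF-treated NSCs (116-fold) was above those of Cryab and Hspb1, and that between the BMP4-treated and bFGF/BMP4-treated NSCs (4.65-fold) below them. Hspb2 and Hspb8 were higher and Hspb6, named for this count, was lower in the bFGF/BMP4-treated than in the bFGF/EGF-treated NSCs (limma adjusted p = 0.0055 for Hspb6). In BMP4 against bFGF/EGF 2 were higher and 1 lower. In BMP4 against bFGF/BMP4 2 were higher and 0 lower by limma (0 also with limma-voom and at an unadjusted p below 0.05). The shares of all genes were 16.5% and 14.1%, 21.3% and 15.4%, and 8.41% and 5.14% in turn. The median log2 fold changes of the 5 genes were 0.34, 0.22 and 0.64. Hspb9 had 1.13, 1.22 and 0.780 FPKM in the bFGF/EGF-treated and 0, 0.255 and 0.752 FPKM in the BMP4-treated NSCs (limma adjusted p = 0.029). These values rest on few fragments, 14, 14 and 10 against 0, 3 and 9, at or near the detection limit in the BMP4 libraries.

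Of 12 genes of HSF1 and the chaperones it controls, 2 were higher and 1 lower in the bFGF/BMP4-treated, and 4 were higher and 2 lower in the BMP4-treated, than in the bFGF/EGF-treated NSCs, and 3 were higher and 0 lower by limma (0 also with limma-voom and at an unadjusted p below 0.05) in the BMP4-treated than in the bFGF/BMP4-treated NSCs. The shares of all genes, higher and lower, were 16.5% and 14.1%, 21.3% and 15.4%, and 8.41% and 5.14% in turn. Bag3 was at 9.26 to 14.1, 39.7 to 59.8 and 52.6 to 62.9 FPKM in the 3 groups. Hspa1a and Hspa1b, a near-identical pair of inducible chaperone genes between which reads may be split, were 11.7-fold and 5.03-fold higher in the BMP4-treated than in the bFGF/EGF-treated NSCs, at no more than 3.50 and 2.18 FPKM. Hsf1 itself, named here as the factor of the list, was at 5.41 ± 0.893, 4.02 ± 0.608 and 4.08 ± 0.526 FPKM (SD, n = 3) and did not pass in any comparison.

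Beside Cp and Steap4, 18 of 21 genes of iron and copper handling were tested. In the bFGF/BMP4-treated against the bFGF/EGF-treated NSCs 3 were higher and 2 lower, in the BMP4-treated 6 were higher and 2 lower, and in the BMP4-treated against the bFGF/BMP4-treated NSCs 3 were higher and 1 lower. All genes tested had 16.5% higher and 14.1% lower, 21.3% and 15.4%, and 8.41% and 5.14% in these comparisons in turn. Heph, hephaestin, a ferroxidase related to Cp, was at 0.0295 to 0.0537 FPKM in the bFGF/EGF-treated, 1.83 to 2.87 FPKM in the bFGF/BMP4-treated and 1.82 to 2.00 FPKM in the BMP4-treated NSCs, unlike Cp, which was lowest in the bFGF/BMP4-treated NSCs. Trf, transferrin, was lower in both treated groups (10.1 to 11.6, 2.32 to 3.96 and 0.657 to 1.78 FPKM), and Lrp2, an endocytic receptor that takes up Lcn2, was at 0.282 to 0.346, 0.0708 to 0.137 and 1.03 to 1.69 FPKM. Of 3 asparagine enzymes beside Aspg, 1 was higher and 1 lower in each treated group than in the bFGF/EGF-treated NSCs, and 0 passed between the treated groups by limma or limma-voom (1, lower, at an unadjusted p below 0.05). Asns, which makes asparagine, was lower in both treated groups (59.5 to 71.9, 8.17 to 10.4 and 4.68 to 7.47 FPKM), whereas Asrgl1, an asparaginase like Aspg in activity, was higher in both (32.1 to 46.1, 86.0 to 119 and 114 to 127 FPKM).

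Of 22 inflammatory regulators and targets, 19 were tested. In the bFGF/BMP4-treated NSCs 5 were higher and 5 lower than in the bFGF/EGF-treated, in the BMP4-treated NSCs 7 were higher and 2 lower, and in the BMP4-treated against the bFGF/BMP4-treated NSCs 7 were higher and 1 lower. For all genes tested these shares were 16.5% and 14.1%, 21.3% and 15.4%, and 8.41% and 5.14%. C3, the central component of complement and a marker of A1-type astrocytes, was at 109, 36.3 and 32.5 FPKM in the BMP4-treated NSCs and at most 0.0127 FPKM in the other libraries, in each of which it was within the detection limit. C3 thus passed the filter only through the BMP4 libraries, and its place in the counts was partly set by the filter. The first BMP4 library was the highest for C3, as for Serpina3n and Steap4. Il1r1, the receptor of interleukin-1, was 8.33-fold higher in the BMP4-treated than in the bFGF/EGF-treated NSCs (limma adjusted p = 1.8e-05), and Vcam1, an adhesion molecule also found on quiescent NSCs, 9.05-fold (limma adjusted p = 5.6e-07).

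Marker lists of the cell types that such cultures could hold differed between the groups in different ways. Beside their counts, 16.5% of all genes were higher and 14.1% lower in bFGF/BMP4 against bFGF/EGF. The shares were 21.3% and 15.4% in BMP4 against bFGF/EGF, and 8.41% and 5.14% in BMP4 against bFGF/BMP4. Of 10 astrocyte markers, 8 were higher and 1 was lower in each treated group than in the bFGF/EGF-treated NSCs, and their summed level was 305 to 369 FPKM in the bFGF/EGF-treated, 1236 to 1639 FPKM in the bFGF/BMP4-treated and 2124 to 2309 FPKM in the BMP4-treated NSCs. Between the BMP4-treated and the bFGF/BMP4-treated NSCs, 5 were higher and 2 lower (median log2 fold change 0.53). Aqp4, the astrocyte water channel, was at 0.381 to 0.680, 192 to 239 and 700.4 to 829.6 FPKM, whereas S100b was at a mean of 55.1 FPKM in the bFGF/BMP4-treated and 40.1 FPKM in the BMP4-treated NSCs (limma adjusted p = 0.22). Of 10 NSC markers, 2 were higher and 5 lower in the bFGF/BMP4-treated, and 3 higher and 3 lower in the BMP4-treated than in the bFGF/EGF-treated NSCs, with summed levels of 1081 to 1219, 597 to 732 and 904 to 1279 FPKM. In the BMP4-treated against the bFGF/BMP4-treated NSCs, 5 were higher and 1 lower (median log2 fold change 1.12). Nes, nestin, was at 145 to 157, 2.96 to 3.94 and 10.7 to 20.7 FPKM. Id3 and Prom1 went the other way in the BMP4-treated NSCs, 9.14-fold and 3.77-fold higher than in the bFGF/EGF-treated NSCs. Of 9 ependymal markers 6 were tested, and 5 were higher and 0 lower by limma (0 also with limma-voom and at an unadjusted p below 0.05) in the BMP4-treated than in the bFGF/EGF-treated NSCs. In the bFGF/BMP4-treated against the bFGF/EGF-treated NSCs, 0 were higher by limma (1 at an unadjusted p below 0.05, 0 with limma-voom) and 2, Dynlrb2 and Cfap126, were lower (1 with limma-voom), and between the BMP4-treated and the bFGF/BMP4-treated NSCs 6 were higher. Dynlrb2 and Cfap126 had only 3 to 4 and 3 to 13 fragments in the bFGF/BMP4 libraries, near the detection limit. All 9 ependymal markers together summed to 9.19 to 13.6, 11.3 to 12.3 and 59.5 to 72.2 FPKM, with Tmem212 at 0 in all libraries. Most of this sum was Foxj1, with means of 8.26, 10.0 and 55.1 FPKM in the same order of groups. The part of these cell types in the levels of the 8 genes was not tested.

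Microglia, which respond to and drive reactive astrocytes in tissue, were represented by few marker fragments: the 10 genes summed to 0.411 to 0.876, 0.412 to 0.540 and 1.49 to 1.75 FPKM, C1qa, C1qb, Itgam and Tyrobp were at 0 in all libraries, and 2 were tested, of which Tmem119 was higher and P2ry12 lower (limma adjusted p = 0.0073 and 0.029) in the bFGF/BMP4-treated and the BMP4-treated than in the bFGF/EGF-treated NSCs. The 10 vascular and mural markers summed to 0.236 to 0.431, 1.74 to 2.64 and 4.08 to 5.66 FPKM, with Cldn5 at 0 in all libraries and Kdr, Rgs5 and Pdgfrb tested, and the 8 markers of meningeal fibroblasts summed to 0.440 FPKM or less. The 8 oligodendrocyte markers summed to 1.79 to 3.12, 5.63 to 7.06 and 21.9 to 28.3 FPKM, and the 10 markers of neurons and neuroblasts to 79.6 to 96.0, 49.0 to 55.1 and 145 to 217 FPKM, of which 2 of 8 tested were higher and 1 lower in the BMP4-treated than in the bFGF/EGF-treated NSCs (median log2 fold change 0.11). Tubb3 had a mean of 20.3 FPKM in the bFGF/EGF-treated and 145 FPKM in the BMP4-treated NSCs, while Syt1 was 10.3-fold lower in the BMP4-treated NSCs (limma adjusted p = 4.5e-05).

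**Figure D4:**
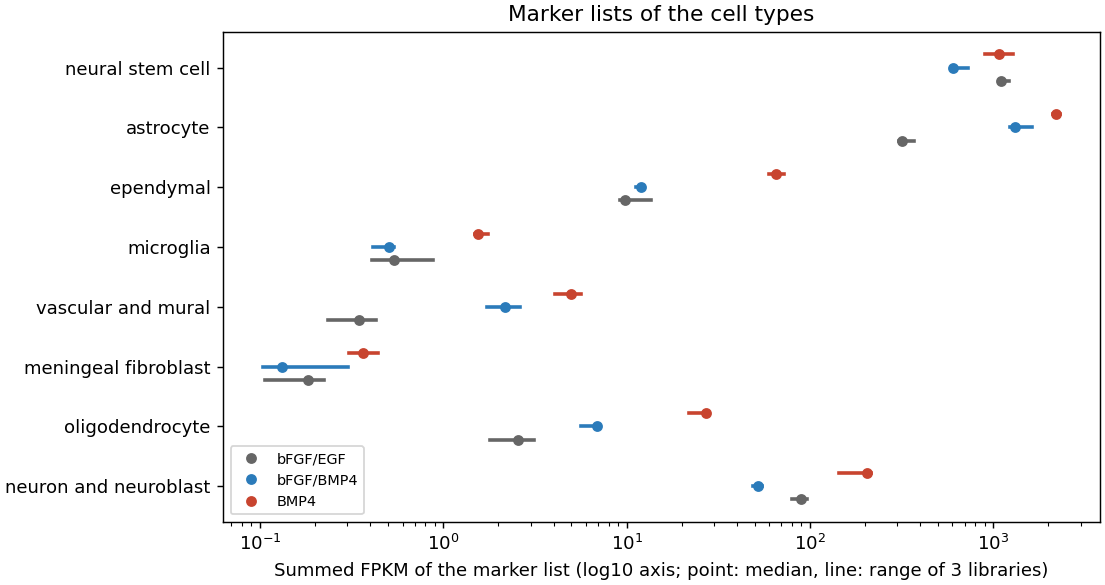
Summed FPKM of each cell type marker list on a log10 axis, with the median of the 3 libraries as a point and their range as a line. The microglia, vascular and fibroblast lists stay below 6 FPKM in every group, and the astrocyte list rises from 305 FPKM at the lowest to 2309 FPKM.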

How the data were processed

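RNA-seq of 9 libraries (3 for each treatment) was analysed. The submitters' processing notes name fastp 0.19.7, HISAT2 2.0.5, featureCounts 1.5.0-p3 and mm39. The authors deposited FPKM values of 55704 genes, and the annotation release, the strand setting and the scaling of the libraries (0.944 to 1.1 relative to their own fragments) are not given in the sources used here. Of 55414 Ensembl identifiers, 54749 were found in GENCODE vM39, and 290 genes had only a name. Because FPKM values are not counts, the DESeq2 test of the study was replaced by limma 3.58.1 (R 4.3.3) (trend option) on log2(FPKM + 0.1), restricted to genes whose mean reached 0.1 FPKM, with Benjamini-Hochberg adjustment and the threshold of the study. Whole fragment numbers were rebuilt from the FPKM steps for 30860 of 30860 genes above 0 (tolerance 0.02) and used for detection limits, counting intervals and limma-voom. The alternatives changed the pseudocount (1), the filter (none, or a mean of 1 FPKM), the scale (TPM, or median-ratio scaling) and the fit (limma-voom, a replicate block, only the groups compared), dropped the fold threshold, or left out each library in turn. The fit was also run on simulated counts, in which genes with few fragments were left unchanged. That run does not bear on low genes such as Lcn2 and Steap4. The 8 genes and all lists were chosen with earlier results of these data known. Named beside the 8 genes were all other pan-reactive genes, in each further list up to 3 called genes with the largest fold change, overlapping genes, and the 3 most similar profiles. Replicate numbers did not pair the libraries (correlation of deviations -0.0839 to 0.125 for same-numbered libraries). Promoters came from GRCm39. The paper also gives raw counts in its supplement, and the rebuilt fragment numbers were not checked against them. The reads, these raw counts, protein sequences and the study's other experiments were not used here.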

Additional observations from a re-analysis of the deposited data

How the results depend on the processing

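No value of the 8 genes changed its direction in a called comparison under any alternative run. The number of genes lower in the bFGF/BMP4-treated against the bFGF/EGF-treated NSCs was 1, 2 with limma-voom (Steap4 added) and 1 to 2 with each library left out (S1pr3 added without the first bFGF/EGF library). The numbers of genes higher were 4, 6 to 7 and 7 to 8 in the 3 comparisons with each library left out, Steap4 being added without the third BMP4 library. With a pseudocount of 1, Lcn2 lost both of its calls and Aspg that of bFGF/BMP4 against bFGF/EGF, and Lcn2 and Steap4 did not pass a filter of a mean FPKM of at least 1. Replicate numbers are shared by the groups, but only 1 of 9 same-numbered pairs of libraries correlated above 0.1, and with a replicate block 4 genes were higher and 1 lower, 6 and 0, and 7 and 0, as without it. Over all genes tested, the higher and lower numbers were 3327 and 2847 in bFGF/BMP4 against bFGF/EGF, 4297 and 3103 in BMP4 against bFGF/EGF, and 1699 and 1039 in BMP4 against bFGF/BMP4. With a pseudocount of 1 they were 1723 and 1821, 2326 and 2038, and 890 and 559. A mean FPKM of at least 1 left 2649 higher in BMP4 against bFGF/EGF and 1012 in BMP4 against bFGF/BMP4, from fewer genes tested. With no fold threshold, 5058 were higher and 4761 lower in bFGF/BMP4 against bFGF/EGF, 5105 lower in BMP4 against bFGF/EGF and 1797 lower in BMP4 against bFGF/BMP4. Among the other named genes, 2320 of 2412 values kept their side of the threshold and 0 reversed. Depth limits Lcn2 and Steap4, which rest on at most 35 fragments in a library.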
